A study of Schizosaccharomyces pombe with 26 samples.

Results

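The features described here are the tRNA genes and the RNA polymerase III machinery of fission yeast, Schizosaccharomyces pombe, as spotted on arrays of intergenic regions (IGR) and of open reading frames (ORF). They were taken by name: an IGR feature counted as a tRNA feature where its name began with tRNA, and a feature of either array counted as machinery where its name, or the systematic identifier behind it, was that of an rpc, sfc or brf gene. This gave 59 features of 10212, namely 19 tRNA and 20 machinery features among 5168 of the IGR array and 20 machinery features among 5044 of the ORF array. The tRNA-Thr(AGT) feature and the sfc9 ORF feature are marked as missing in the deposited tables, and the remaining 57 were analysed. RefSeq annotates 21 such machinery genes, of which sfc7 is on neither array.

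Histone H3 was measured by chromatin immunoprecipitation (ChIP) in 3 samples of delta-hrp1, a knockout of the CHD1-type chromatin remodeller Hrp1, in 2 samples of delta-med15, a knockout of the Mediator subunit Med15, and in 2 wildtype samples (strain 711). Binding of Med15 was measured with an anti-myc antibody in 3 samples of a Med15-myc strain. All cultures were grown to mid-log phase in the rich medium YES, and each sample was hybridised to both array types together with its input DNA. The labels call replicates biological without tying each to its own culture, so p-values measure the spread between these samples, and they give no untagged control for Med15-myc. The RNA samples of the series were not analysed here.

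RNA polymerase III transcribes tRNAs, the 5S rRNA and other short RNAs. On a tRNA gene, the factor TFIIIC binds 2 sequence blocks inside the transcribed region, the A box and the B box, and places TFIIIB, which contains Brf1 and the TATA-binding protein, just upstream. In fission yeast a TATA element upstream of the gene also takes part, and transcription ends at a run of T. Actively transcribed tRNA genes are short and are known to lie in nucleosome-poor DNA.

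Of the 19 tRNA features, 11 carry in their names exactly the start and end of 1 RefSeq tRNA gene of assembly ASM294v3, all 11 on chromosome III, with the named anticodon at the place of an anticodon. For 10 of the 11, RefSeq gives the same amino acid, while for tRNA-Asp(GTC) its product field reads tRNA-Asn. The other 8 features (Pro, Thr, Trp, Lys, Cys, Tyr, Met and Val) had no gene of the same coordinates, and no sequence is given for them. The 7 sequences shown are the 4 features that differed between a deletion strain and wildtype in H3 ChIP signal (Ala, Arg, Asn and Glu) and 3 with some of the lowest H3 over input (Ile, His and Asp). Each runs 5′ to 3′ on the strand of the gene, from 40 bases before the RefSeq gene to 15 bases after it. Capitals mark TATAA before the gene, the anticodon, a match to the core of the B box (GGTTCGA, any 2 bases, then CC), and a run of 4 or more T after the gene.
tRNA-Ala(AGC): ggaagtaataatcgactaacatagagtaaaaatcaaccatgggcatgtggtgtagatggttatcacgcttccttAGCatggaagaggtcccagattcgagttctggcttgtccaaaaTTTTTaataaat
tRNA-Arg(TCT): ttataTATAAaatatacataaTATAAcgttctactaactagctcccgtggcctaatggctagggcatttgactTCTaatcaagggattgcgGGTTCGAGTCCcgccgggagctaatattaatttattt
tRNA-Asn(GTT): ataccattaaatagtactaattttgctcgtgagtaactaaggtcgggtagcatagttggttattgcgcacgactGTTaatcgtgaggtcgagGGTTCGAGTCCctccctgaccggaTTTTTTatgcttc
tRNA-Glu(CTC): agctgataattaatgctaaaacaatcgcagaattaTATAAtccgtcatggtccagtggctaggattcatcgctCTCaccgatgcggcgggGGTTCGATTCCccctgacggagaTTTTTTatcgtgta
tRNA-Ile(AAT): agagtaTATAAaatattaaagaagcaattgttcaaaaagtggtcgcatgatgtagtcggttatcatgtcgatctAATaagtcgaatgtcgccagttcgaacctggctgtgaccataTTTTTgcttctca
tRNA-His(GTG): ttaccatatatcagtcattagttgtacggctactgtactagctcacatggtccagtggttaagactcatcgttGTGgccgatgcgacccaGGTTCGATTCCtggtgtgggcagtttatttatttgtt
tRNA-Asp(GTC): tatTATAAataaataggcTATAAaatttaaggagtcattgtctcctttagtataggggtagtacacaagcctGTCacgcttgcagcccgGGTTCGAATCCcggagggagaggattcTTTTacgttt
In ASM294v3 these windows are chrIII:1065029-1065157 on the minus strand (Ala), chrIII:578807-578934 (Arg), chrIII:947222-947350 (Asn), chrIII:140927-141053 (Glu), chrIII:817385-817513 (Ile), chrIII:71360-71486 (His) and chrIII:1067989-1068114 (Asp), the last 6 on the plus strand.

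These genes differ in the marked elements. TATAA lies in the 40 bases before 6 of the 11 matched genes (54.5%), against 64 of all 171 nuclear tRNA genes of RefSeq (37.4%). The exact letters searched for the B box core are in 8 of 11 (72.7%), against 96 of 171 (56.1%). TTTT follows 8 of 11 (72.7%), against 146 of 171 (85.4%). The exact letters searched for the A box, TGGC, any 2 bases and AGTGG, are in 0 of 11, against 6 of 171 (3.51%). All were searched on the strand of the gene only, and variants of these letters were not counted. The His and Glu genes, for example, hold tggtccagtgg, with T in place of the C of the A box letters. A match in these letters is thus no measure of binding, and the lack of one does not show that a box is absent. tRNA-Ala(AGC) has neither TATAA nor the exact B box letters, whereas tRNA-Arg(TCT) and tRNA-Asp(GTC) have both, with 2 TATAA each. The mature sequence of the Arg gene occurs in 1 nuclear gene, whereas that of the Ala gene occurs in 9 and those of Gly, Asp and Ser in 8, 7 and 7, so a spot of such a tRNA can also take up DNA of its copies. The tRNA features span 71 to 84 bases, while chromatin was sonicated to fragments of 600 to 1500 bp per the labels, so flanking DNA enters each value. The Ala and Asp genes are 2911 bases apart and the Asp and Leu genes 1066.

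The input DNA checks the strain labels. On the ORF array, input less background at hrp1 was at percentiles 0.0409, 0.143 and 0.0613 of features in delta-hrp1, against 86.0 and 86.4 in delta-med15. At the feature named SPBP35G2.15, a RefSeq synonym of med15, it was at percentiles 0.675 and 0.634 in delta-med15, against 43.6, 36.9 and 16.8 in delta-hrp1. The arrays are uneven in quality. The median ChIP intensity ran from 612 to 12154 scanner units, and on the IGR arrays 0.151% to 34.2% of spots had input under 1.5 times their local background. As scanned, the log2 ratios of arrays with the ChIP DNA in opposite dyes could run against each other across IGR features, with r = -0.525 between delta-hrp1 samples 1 (Cy3) and 3 (Cy5), and r = 0.65 between samples 1 and 2, both Cy3. After background correction with normexp, all pairs of IGR H3 arrays correlated positively, from 0.129 to 0.707. The ratios as scanned are given first in each comparison, and the background-corrected ones after them.

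H3 over input at the tRNA features lay mostly below the level of the median IGR feature in both deletion strains, and 13 of 18 passed as lower once local background was corrected for. As scanned and with each array centred on its median feature, the 18 tRNA features had median log2 ratios of -1.25, -1.20 and 0.34 in delta-hrp1 samples 1 to 3, and of -0.98 and -1.39 in delta-med15 samples 1 and 2. Delta-hrp1 sample 3, with the ChIP DNA in Cy5, was the one array on which the median tRNA feature lay above the array median. The median tRNA feature was at percentiles 26.6, 17.9 and 57.5 of all features in delta-hrp1 and at 10.2 and 7.81 in delta-med15. In a fit over the 5 deletion samples with strain and dye as terms, 17 of 18 tRNA features were below 0, with a median log2 ratio of -0.93, against 45.8% below 0 and a median of 0.06 over all 4948 features tested. With limma and Benjamini-Hochberg adjustment, 0 tRNA features passed a threshold of 0.05 (0.283% of all features passed lower), with adjusted p of 0.27 to 0.84. At an unadjusted p under 0.05, 9 of 18 were lower and 0 higher, against 7.13% of all features lower and 3.66% higher.

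The background-corrected ratios gave the same direction with less spread between dyes. The median tRNA feature stood at a log2 ratio of -0.34, -1.24 and -0.40 in delta-hrp1 samples 1 to 3, and at -1.31 and -1.31 in delta-med15 samples 1 and 2. In delta-med15 all 18 tRNA features were below 0 in both samples, whose dyes are opposite, and their median was at percentiles 4.90 and 6.0 of all features. In delta-hrp1 17, 14 and 13 of 18 were below 0, with the median at percentiles 35.8, 12.3 and 33.2. By limma with Benjamini-Hochberg adjustment, 13 of 18 tRNA features were lower than the array median and 0 higher, against 14.8% of all 4960 features lower and 9.56% higher. The median over the 18 was -1.02, and all 18 were below 0, against 48.2% of all features. The 13 were Ala, Asn, Asp, Cys, Glu, Gly, His, Ile, Leu, Lys, Met, Phe and Ser, and all 13 passed also after loess normalisation within each array (20.9% of all features lower). The background-corrected fit pooled the spread over all IGR features, which gave each feature the same standard error of 0.27 whatever its own spread. Without delta-med15 sample 1 it called 4 of the 13, and without delta-med15 sample 2 or delta-hrp1 sample 3 it called 10.

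**Figure D1:**
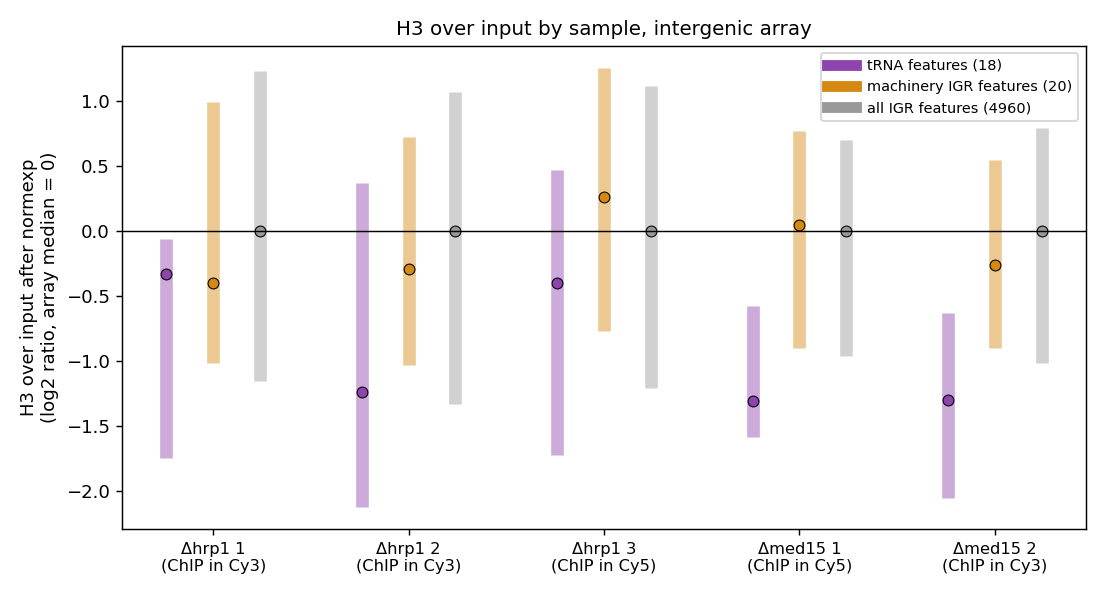
Background-corrected log2 H3 over input, with the array median at 0 (vertical axis), in the 3 delta-hrp1 and 2 delta-med15 samples (horizontal axis), for 18 tRNA, 20 machinery and all 4960 IGR features. Points are medians and bars span the 10th to 90th percentile of the features; the tRNA medians, at -0.34, -1.24, -0.40, -1.31 and -1.31, are all below 0.

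After background correction, tRNA-Ile(AAT) had the lowest fitted mean of the tRNA features. It had log2 ratios of -1.05, -0.65 and -2.78 in delta-hrp1 samples 1 to 3, and of -1.39 and -1.81 in delta-med15 samples 1 and 2, with a fitted mean of -1.62 (SE 0.27, limma with Benjamini-Hochberg, adjusted p = 6.11e-08). tRNA-Asn(GTT) had -1.64, -3.12 and -0.87 in delta-hrp1 and -0.92 and -1.26 in delta-med15, with a mean of -1.40 (adjusted p = 4.96e-06). tRNA-Ala(AGC) had -2.00, -1.54 and -1.44 in delta-hrp1 and -0.71 and -1.34 in delta-med15, with a mean of -1.30 (adjusted p = 2.53e-05). Ile, Asn and Ala were thus below the array median in all 5 samples, which restates the values behind these calls. tRNA-Asp(GTC) was also below 0 in every sample, at -2.27, -1.76 and -0.15 in delta-hrp1 and -0.78 and -2.31 in delta-med15, with wide spread within each strain. tRNA-His(GTG) split delta-hrp1, with -0.11, 0.30 and -1.95 there, against -2.39 and -1.49 in delta-med15. tRNA-Glu(CTC) had -1.40, -1.72 and 0.32 in delta-hrp1, and -1.70 and -2.22 in delta-med15. Within delta-hrp1 the Cy5 sample stood apart from both Cy3 samples at these features, higher at Glu and lower at His.

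The other end of the tRNA group held features that did not pass. tRNA-Val(CAC) had background-corrected log2 ratios of -0.28, 0.85 and 0.01 in delta-hrp1 and -1.15 and -0.74 in delta-med15. tRNA-Pro(TGG) had -0.11, 0.13 and 0.43 in delta-hrp1 and -1.42 and -0.84 in delta-med15, and tRNA-Tyr(GTA) had -0.01, 0.53 and -0.32 in delta-hrp1 and -1.41 and -0.97 in delta-med15. Val, Pro and Tyr did not pass as different between the strains either. tRNA-Arg(TCT) and tRNA-Trp(CCA) also did not pass, and they had little input DNA to compare with: the Arg feature's input was at percentiles 0.161 to 6.88 of all features over the 5 samples, and the Trp feature's at 0.121 to 1.41. Their ratios as scanned ranged from -5.71 (delta-hrp1 sample 2) to 3.39 (delta-hrp1 sample 3) for Arg and from -4.75 to 4.79 between the 2 delta-med15 samples for Trp, with no value for Trp in delta-hrp1 sample 3. As scanned, the 5 lowest tRNA features by the mean over samples were Trp (-1.67), Cys (-1.63), Asp (-1.57), Ala (-1.49) and Asn (-1.43). The 5 highest as scanned were Tyr (-0.24), Val (-0.26), Ser (-0.75), Phe (-0.81) and Pro (-0.85), so every tRNA feature averaged below the array median. In the fit with strain and dye as terms the exception was Trp, at 0.71 on 4 samples.

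**Figure D2:**
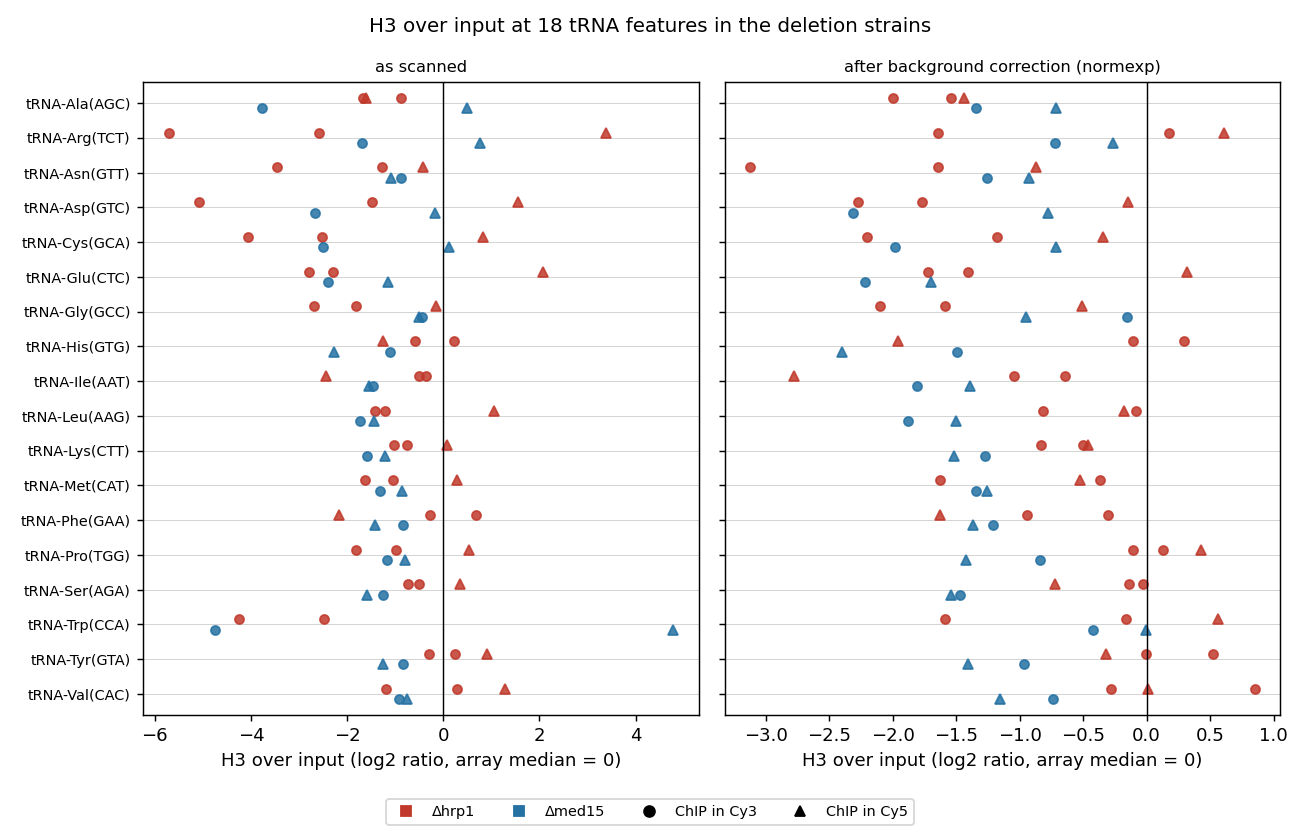
Log2 H3 over input with the array median at 0 (horizontal axis), as scanned on the left and after background correction on the right, for each tRNA feature (rows), with 1 point per sample in red for delta-hrp1 and blue for delta-med15. Circles have the ChIP DNA in Cy3 and triangles in Cy5; as scanned, the Cy5 sample of delta-hrp1 is often far from the Cy3 ones, as at tRNA-Arg(TCT) with 3.39 in sample 3 against -2.59 and -5.71 in samples 1 and 2.

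No tRNA feature passed a test of the difference between the deletion strains, as scanned or after background correction. As scanned, delta-hrp1 minus delta-med15 had a median of 0.50 over the tRNA features, 14 of 18 being above 0. Over all 4948 features tested, 2630 were above 0 and the median was 0.05. The tRNA median was 1.30 without delta-med15 sample 2 and 1.48 with the arrays given equal spread. As scanned, 0 tRNA features passed by limma with Benjamini-Hochberg or at an unadjusted p under 0.05 (0% and 0.263% of all features were higher). After background correction the median was 0.47, and 0.83 without delta-hrp1 sample 2, with 0 passing (0.0403% of all features higher and 0.0202% lower), and 7 of 18 were higher in delta-hrp1 at an unadjusted p under 0.05, against 2.32% of all features. These were Leu (1.38), Pro (1.28), Glu (1.24), Tyr (1.17), Ser (1.15), His (1.09) and Val (1.08), each with SE 0.53 and an adjusted p of 0.997 by limma with Benjamini-Hochberg. With 3 samples against 2 the errors of these differences were wide.

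The machinery genes encode the polymerase and its factors, and their IGR features lie beside these genes on a side the files do not state. On the IGR array their H3 over input as scanned had medians of -0.96, -0.36 and 1.03 in delta-hrp1 samples 1 to 3, and of 0.47 and -0.67 in delta-med15 samples 1 and 2. These medians turned with the dye, below 0 on all 3 arrays with the ChIP DNA in Cy3 and above 0 on both with it in Cy5. The fitted median was 0.13 with 9 of 20 below 0, 0 of 20 passed by limma with Benjamini-Hochberg, and 2 were lower and 0 higher at an unadjusted p under 0.05, against 7.13% and 3.66% of all features. The fitted log2 ratios ran from -1.0 at rpc34 to 0.77 at rpc40, with the genes of TFIIIA (sfc2), of TFIIIC (sfc1, sfc3, sfc4, sfc6 and sfc9) and of the other polymerase subunits between them. The highest by mean over samples was rpc1, the largest subunit, with log2 ratios of 1.84, 0.70 and 0.42 in delta-hrp1 and 0.63 and 0.22 in delta-med15. The lowest was brf1, the TFIIIB subunit, with -4.31, -4.79 and 3.32 in delta-hrp1 and 0.68 and -0.25 in delta-med15. The values of rpc1 were above 0 in all 5 samples, while those of brf1 turned with the dye within delta-hrp1, and its input was at percentile 0.202 in delta-hrp1 sample 2.

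After background correction the fitted median of the 20 IGR machinery features was -0.07, and 0.18 without delta-med15 sample 1, with 4 lower and 1 higher by limma with Benjamini-Hochberg, against 14.8% of all features lower and 9.56% higher. sfc3, a TFIIIC subunit, had log2 ratios of -0.96, -0.98 and -1.97 in delta-hrp1 samples 1 to 3, and of -1.24 and -0.85 in delta-med15 (mean -1.24, SE 0.27, adjusted p = 7.86e-05). rpc34, a subunit of the polymerase part that contacts TFIIIB, had -0.99, -0.73 and -0.69 in delta-hrp1 and -1.17 and -1.39 in delta-med15 (mean -1.03, adjusted p = 0.0015). Both genes were below the array median in every sample, which restates the values behind these calls, and they were so as scanned too. sfc1, another TFIIIC subunit, had -1.28, -1.89 and -0.20 in delta-hrp1 and -0.28 and -1.31 in delta-med15 (mean -0.85, adjusted p = 0.0102). rpc11, the subunit needed for RNA cleavage, had -0.78, -0.20 and -0.99 in delta-hrp1 and -0.87 and -0.46 in delta-med15 (mean -0.70, adjusted p = 0.0392). rpc1 was the one higher feature, with 1.94, 1.07 and 0.16 in delta-hrp1 and 0.74 and 0.54 in delta-med15 (mean 0.79, adjusted p = 0.0185). Of the 5 calls, 1 held without delta-med15 sample 1, 2 without delta-hrp1 sample 3 or delta-med15 sample 2, and 3 without either other delta-hrp1 sample.

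In the coding sequences of the ORF array, H3 over input as scanned gave a fitted median of -0.22 over 19 machinery genes, 12 of them below 0. By limma with Benjamini-Hochberg 0 passed (0.369% of all features passed lower), and at an unadjusted p under 0.05 4 were lower and 1 higher, against 9.94% and 5.54% of all features. The fitted ratios ran from -1.14 at rpc11 to 0.86 at rpc82. rpc17, a stalk subunit, was the lowest by mean, with -4.00, -4.13 and 2.30 in delta-hrp1 and -0.16 and -1.43 in delta-med15. rpc82 was the highest, with 0.10, -0.17 and 2.39 in delta-hrp1 and 0.64 and 0.80 in delta-med15. In both genes the Cy5 array of delta-hrp1 stood apart from its Cy3 arrays. After background correction 3 were lower and 1 higher by limma with Benjamini-Hochberg, against 8.3% and 2.54% of all features.

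Those 4 coding sequences belong to polymerase subunits. rpc11 had background-corrected log2 ratios of -2.37, -1.33 and -0.75 in delta-hrp1 samples 1 to 3, and of -0.48 and -0.99 in delta-med15 (mean -1.04, SE 0.20, limma with Benjamini-Hochberg, adjusted p = 0.0105). rpc2, the second largest subunit, had -1.26, -0.82 and -0.92 in delta-hrp1 and -0.53 and -0.56 in delta-med15 (mean -0.77, SE 0.17, adjusted p = 0.0190). rpc10, a subunit common to the nuclear RNA polymerases, had -0.67, -0.95 and -0.59 in delta-hrp1 and -0.83 and -0.79 in delta-med15 (mean -0.76, SE 0.17, adjusted p = 0.0181). All 3 were below 0 in each of the 5 samples, which restates the values behind these calls. Among the 3, rpc10 varied least between samples. rpc82, of the same polymerase part as rpc34, was above 0 in each, at 0.55, 0.39 and 1.26 in delta-hrp1 and 0.61 and 0.87 in delta-med15 (mean 0.77, SE 0.18, adjusted p = 0.0268). Without delta-med15 sample 1 none of the 4 passed, without delta-hrp1 sample 2 or 3 or delta-med15 sample 2 1 of 4 did, and without delta-hrp1 sample 1 all 4 did. Without delta-med15 sample 2 or delta-hrp1 sample 3 the fitted ORF median of -0.22 was -0.13. As scanned and after background correction, 0 machinery features of either array differed between delta-hrp1 and delta-med15 by limma with Benjamini-Hochberg, where 0% to 0.0403% of all features did in a given direction. At an unadjusted p under 0.05 the count was 0 on both arrays as scanned (0.984% of ORF features higher and 0.513% lower). After background correction it was 0 on the IGR array (1.37% lower) and 1 of 19 lower on the ORF array, which was rpc25, a stalk subunit (2.58% of features higher and 2.04% lower).

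Comparison with wildtype rests on another quantity. For wildtype the deposited value table was the source, and its values are log2 of the H3 ChIP channel less background, not divided by input, so a low value can come with little input DNA as well as with little H3. Wildtype input was not analysed here. Both deletion strains were compared with the same 2 wildtype samples, which have the ChIP DNA in Cy3, and the dye term was estimated from the deletion samples alone. Centred on each array's median, the tRNA features had median H3 ChIP signals of -1.54, -1.09 and -1.26 in delta-hrp1 samples 1 to 3, and of -1.29 and -1.49 in delta-med15, against -0.35 and -0.53 in wildtype. The median tRNA feature was at percentiles 26.1, 25.7 and 15.2 in delta-hrp1 and 17.7 and 14.9 in delta-med15, against 40.1 and 36.4 in wildtype. The group medians of the deletion samples were below both wildtype ones. Over all IGR features, r was 0.903 between the wildtype samples and 0.445 to 0.696 between wildtype and deletion samples. Between delta-hrp1 and delta-med15 samples it was 0.598 to 0.731. On the ORF array these were 0.921, 0.279 to 0.630 and 0.575 to 0.684. Whether a shift shared by both deletions belongs to them or to the 2 wildtype arrays was not tested.

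In delta-hrp1 minus wildtype, 14 of 18 tRNA features were below 0, with a median log2 difference of -1.49, against 52.2% of all 4875 features and a median of -0.08. By limma with Benjamini-Hochberg 3 were lower and 0 higher, against 8.23% of all features lower and 3.96% higher. tRNA-Glu(CTC) had signals of -3.04, -2.70 and -1.24 in delta-hrp1, against -0.63 and 0.14 in wildtype (difference -2.50, SE 0.56, adjusted p = 0.0276). tRNA-Asn(GTT) had -0.94, -3.09 and -0.56 in delta-hrp1, against 1.06 and 1.07 in wildtype (difference -2.87, SE 0.73, adjusted p = 0.0357). tRNA-Arg(TCT) had -3.24 and -3.14 in delta-hrp1 samples 1 and 3, with sample 2 at the floor of the table and left out, against -1.20 and 0.07 in wildtype (difference -2.79, SE 0.72, adjusted p = 0.0392). In all 3 genes the delta-hrp1 samples lay below both wildtype samples, which restates the values behind these calls. Input less background was at percentiles 31.2, 35.6 and 23.9 in the delta-hrp1 samples for Glu, 75.3, 71.7 and 52.7 for Asn, and 0.161, 1.75 and 3.32 for Arg. tRNA-Cys(GCA) at -2.38 (adjusted p = 0.0504) and tRNA-Pro(TGG) at -2.36 (adjusted p = 0.0548) missed the threshold. At an unadjusted p under 0.05, 8 of 18 were lower and 0 higher, against 19.2% and 12.7% of all features.

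In delta-med15 minus wildtype, 15 of 18 tRNA features were below 0, with a median of -1.23, against 52.1% of all features and a median of -0.07. tRNA-Ala(AGC) was the one member of the IGR array that passed, where 0.144% of all features were lower and 0.041% higher. Its signals were -4.12 and -5.19 in delta-med15, against 0.72 and 0.65 in wildtype (difference -5.72, SE 0.72, limma with Benjamini-Hochberg, adjusted p = 0.0206). In delta-hrp1 the same feature had -1.21, 0.44 and 0.15, against the same wildtype values (difference -1.14, adjusted p = 0.241). The input DNA at the Ala feature moved with this: it was at percentiles 6.26 and 9.58 in delta-med15, against 78.9, 93.9 and 78.8 in delta-hrp1 and 76.4, 71.0 and 34.5 in the Med15-myc samples. Its background-corrected H3 over input was no lower in delta-med15 (-0.71 and -1.34) than in delta-hrp1 (-2.00, -1.54 and -1.44), and the part of input in its low ChIP signal was not tested. At an unadjusted p under 0.05, 7 of 18 tRNA features were lower and 0 higher, against 11% and 7.92% of all features.

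**Figure D3:**
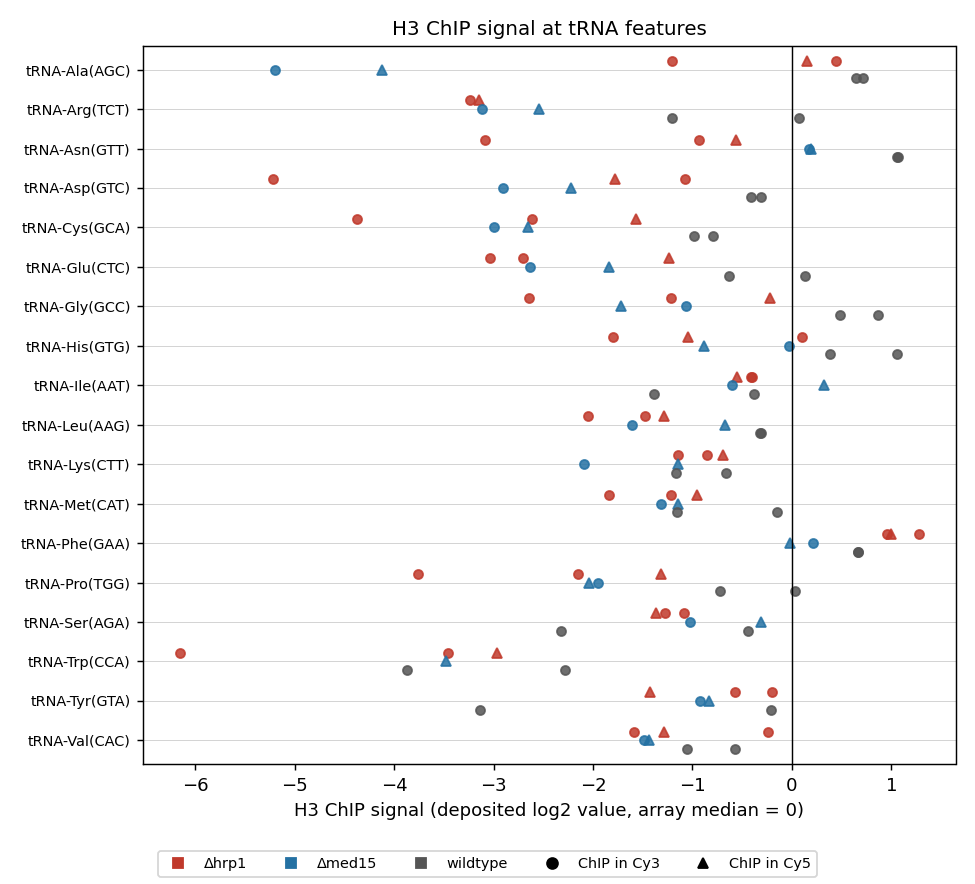
Deposited log2 H3 ChIP signal with the array median at 0 (horizontal axis) at each tRNA feature (rows), with 1 point per sample in red for delta-hrp1, blue for delta-med15 and grey for wildtype. At tRNA-Ala(AGC) both delta-med15 points, at -4.12 and -5.19, lie far left of the wildtype points, at 0.72 and 0.65.

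Each of these calls depends on both wildtype samples: without wildtype sample 1 or sample 2 none of the IGR or ORF calls passed, with adjusted p of 0.0878 to 0.323 by limma with Benjamini-Hochberg. At rpc1 on the IGR array, for example, the difference of delta-hrp1 from wildtype was then 4.28 or 3.71, against 3.99 with both. Of the 7 IGR calls in delta-hrp1, 2 held without delta-hrp1 sample 2, 5 without sample 1, and 4 without sample 3 or either delta-med15 sample. tRNA-Ala(AGC) was also lost without either delta-med15 sample or delta-hrp1 sample 3, with adjusted p of 0.265 to 0.295 and differences of -5.88 to -5.33. Wildtype samples differed widely from each other at tRNA-Tyr(GTA) (-0.22 and -3.14) and tRNA-Ser(AGA) (-0.45 and -2.32), in which neither deletion passed.

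Among the 20 IGR machinery features, 3 were higher and 1 lower in delta-hrp1 than in wildtype, against 3.96% of all features higher and 8.23% lower. rpc1 had H3 ChIP signals of 1.69, 0.14 and -0.17 in delta-hrp1, against -3.05 and -3.62 in wildtype (difference 3.99, SE 0.69, limma with Benjamini-Hochberg, adjusted p = 0.0184). sfc9, a TFIIIC subunit, had 2.30, 0.75 and 1.16 in delta-hrp1, against -2.10 and -2.14 in wildtype (difference 3.46, SE 0.65, adjusted p = 0.0191). rpc19, a subunit shared with RNA polymerase I, had 0.80, -0.25 and -0.52 in delta-hrp1, against -2.42 and -2.03 in wildtype (difference 2.30, SE 0.62, adjusted p = 0.0399). All delta-hrp1 samples of these 3 genes lay above both wildtype samples, which restates the values behind these calls. Delta-med15 lay above wildtype as well at rpc1 (0.27 and -0.45, difference 3.40, adjusted p = 0.0836) and sfc9 (1.97 and 1.03, difference 3.52, adjusted p = 0.0782), without passing. brf1 was lower, with -4.69, -4.56 and -1.86 in delta-hrp1, against -1.30 and -1.02 in wildtype (difference -2.91, SE 0.82, adjusted p = 0.0454). As background-corrected H3 over input, sfc9 had 0.98, 0.52 and -0.11 in delta-hrp1 and 1.19 and 0.54 in delta-med15, and rpc19 had 0.22, -0.33 and 0.28 in delta-hrp1 and -0.48 and -0.70 in delta-med15. Input at brf1 was at percentiles 15.2, 0.202 and 6.71 in delta-hrp1, and at rpc1, rpc19 and sfc9 between 28.3 and 80.3. In delta-med15 0 of 20 machinery features passed, and 3 were higher and 1 lower at an unadjusted p under 0.05, against 7.92% and 11% of all features.

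In the coding sequences, 3 machinery genes were lower and 2 higher in delta-hrp1 than in wildtype, against 13.8% of all features lower and 13.7% higher. rpc11 had H3 ChIP signals of -3.89, -1.80 and -1.66 in delta-hrp1, against 0.13 and -0.34 in wildtype (difference -2.64, SE 0.63, limma with Benjamini-Hochberg, adjusted p = 0.0197). rpc37, of the polymerase part used in initiation and termination, had -1.09, -1.57 and -1.51 in delta-hrp1, against 0.72 and 0.58 in wildtype (difference -1.73, SE 0.48, adjusted p = 0.0311). rpc17 had -4.83, -5.65 and -2.01 in delta-hrp1, against -2.46 and -2.96 in wildtype (difference -2.15, SE 0.63, adjusted p = 0.0372). At rpc11 and rpc37 the groups did not overlap, which restates the values behind these calls. At rpc17, by contrast, delta-hrp1 sample 3 lay above both wildtype samples. Input at rpc17 was low in every delta-hrp1 sample, at percentiles 13.2, 2.147 and 3.56 in samples 1 to 3. At rpc11 it was at percentiles 29.9, 36.4 and 27.5. The part of input in these low ChIP signals was not tested. rpc19 was higher, with 0.31, 0.73 and 0.11 in delta-hrp1, against -1.88 and -1.49 in wildtype (difference 2.16, SE 0.38, adjusted p = 0.0084), on this array as on the IGR array. sfc3 was higher, with -0.59, -0.62 and -0.27 in delta-hrp1, against -1.63 and -1.94 in wildtype (difference 1.23, SE 0.36, adjusted p = 0.0383), and its samples did not overlap either. Without delta-hrp1 sample 2, 2 of these 5 calls held.

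In delta-med15 minus wildtype 1 of 19 machinery ORFs was past the threshold, sfc6, a TFIIIC subunit, where 2.31% of all features were lower and 3.04% higher, but with a single delta-med15 sample behind it. Its H3 ChIP signal was -1.98 in delta-med15 sample 2 and at the floor in sample 1, against 1.12 and 0.53 in wildtype (difference -2.81). Its adjusted p of 0.0318 by limma with Benjamini-Hochberg assumes that this lone sample varies like those of the other groups, and it was 0.0507 without delta-hrp1 sample 2. In delta-hrp1 it was 2.14, 1.83 and -0.19. The value of sample 2 came from 1 of its 2 spots, with a ChIP signal of 5021 over a local background of 3604.5. The other spot of sample 2 (3248.5 over 6747) and both spots of sample 1 (8924 over 14739.5 and 9110 over 10436) had a background above the ChIP signal and stood at the floor. In input, the mean signal over background of the 2 spots was 4506.5 over 7265 in sample 1 and 5429.5 over 6872 in sample 2. Its input was thus at percentiles 0.0613 and 0.0204 in delta-med15, against 89.2, 84.1 and 45.7 in delta-hrp1. As scanned its H3 over input was -0.01 and 0.20 in delta-med15, and the part of input and of spot background in its low ChIP signal was not tested.

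**Figure D4:**
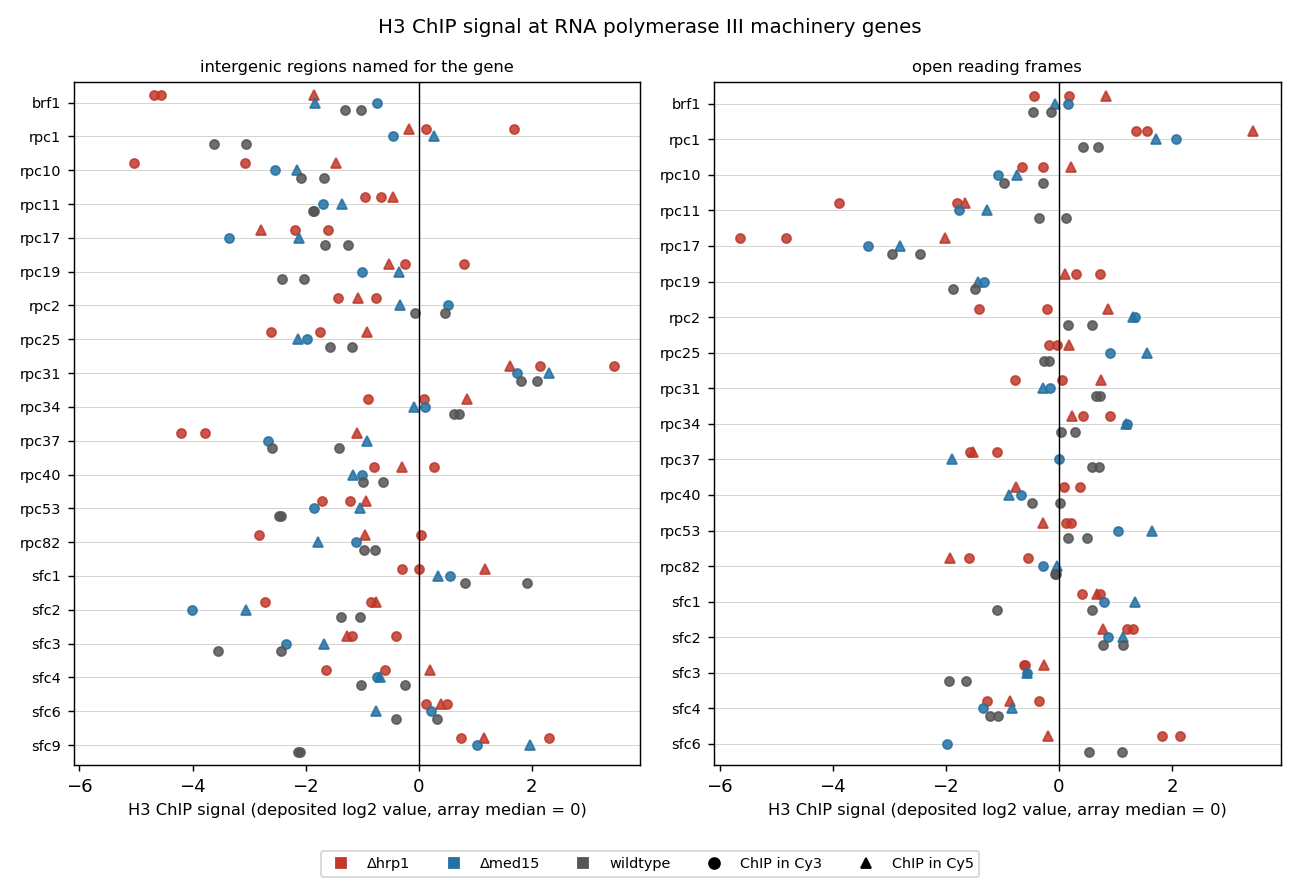
Deposited log2 H3 ChIP signal with the array median at 0 (horizontal axis) at the machinery genes (rows), for the intergenic features on the left and the open reading frames on the right, with 1 point per sample in red for delta-hrp1, blue for delta-med15 and grey for wildtype. At the intergenic rpc1 feature the delta-hrp1 points, at 1.69, 0.14 and -0.17, lie right of the wildtype points, at -3.05 and -3.62.

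No tRNA feature passed as higher or lower than the array median in Med15-myc over input. The median over the 18 was 0.20, 0.18 and 0.12 in samples 1 to 3. Their fitted median was 0.21 with 14 of 18 above 0, against 0.05 over all 4960 features with 2683 above 0. That tRNA median was -0.029 without sample 2 and -0.40 in the deposited ChIP values, so its direction depended on both. By limma with Benjamini-Hochberg 0 passed (0% of all features in either direction), and at an unadjusted p under 0.05 the count was 0 too (0.605% of all features higher, 0.242% lower). The 5 highest by mean were tRNA-Cys(GCA) (0.02, 3.85 and -1.24), tRNA-Asp(GTC) (0.48, 2.85 and -1.21), tRNA-Ile(AAT) (0.80, -0.40 and 0.97), tRNA-His(GTG) (0.28, -0.35 and 1.08) and tRNA-Ser(AGA) (0.62, -0.27 and 0.63). The means of Cys and Asp rested on sample 2, the one with the ChIP DNA in Cy5. The 5 lowest were tRNA-Val(CAC) (-0.10, 0.24 and -2.63), tRNA-Phe(GAA) (0.32, -0.89 and -0.49), tRNA-Pro(TGG) (-0.88, 0.12 and 0.28), tRNA-Ala(AGC) (0.71, -0.06 and -0.65) and tRNA-Met(CAT) (0.14, -0.09 and 0.11). After background correction the tRNA median was 0.31, with 0 passing (1.23% of all features higher, 1.13% lower) and 2 of 18 higher and 0 lower at an unadjusted p under 0.05 (7.86% and 8.73% of all features).

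Of the machinery features, 0 passed for Med15-myc on either array as scanned by limma with Benjamini-Hochberg, and at an unadjusted p under 0.05 1 of 20 IGR features was lower and 0 higher, against 0.242% and 0.605% of all features. That feature was rpc34, with log2 ratios of -0.97, -0.85 and -2.33 in Med15-myc samples 1 to 3 (mean -1.38, SE 0.52), the lowest IGR machinery feature. After background correction rpc34 had -1.33, -1.29 and -1.61 (mean -1.41, SE 0.35, adjusted p = 0.0120) and sfc1 had -1.46, -1.39 and -2.56 (mean -1.80, SE 0.36, adjusted p = 0.00041), where 1.13% of all features were lower. Both passed also after loess (6.88% of all features lower). As scanned sfc1 had -0.28, -0.69 and -2.94. The 2 features were below the array median in all 3 samples, which restates the values behind these calls. They were also among the IGR features low in H3 over input, and both ratios divide by input. Input at rpc34 was at percentiles 53.0, 77.6 and 67.9 in Med15-myc samples 1 to 3, and at 60.7 to 85.2 in the deletion samples. The part of input in these low ratios was not tested. The highest IGR machinery feature as scanned was rpc82, with -0.13, 3.79 and 0.46, again high in the Cy5 sample. Among the ORFs the median was -0.07, with 0 at an unadjusted p under 0.05 as scanned (0.45% of all features higher and 1.29% lower). After background correction 0 passed (0.164% higher and 0.307% lower), and at an unadjusted p under 0.05 rpc40 was higher and rpc10 lower (6.36% and 7.75% of all features). As scanned, the highest and lowest ORFs by mean were rpc40, a subunit shared with RNA polymerase I, with 0.63, 0.64 and 0.53, and sfc3, with -4.35, 0.57 and -1.30.

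**Figure D5:**
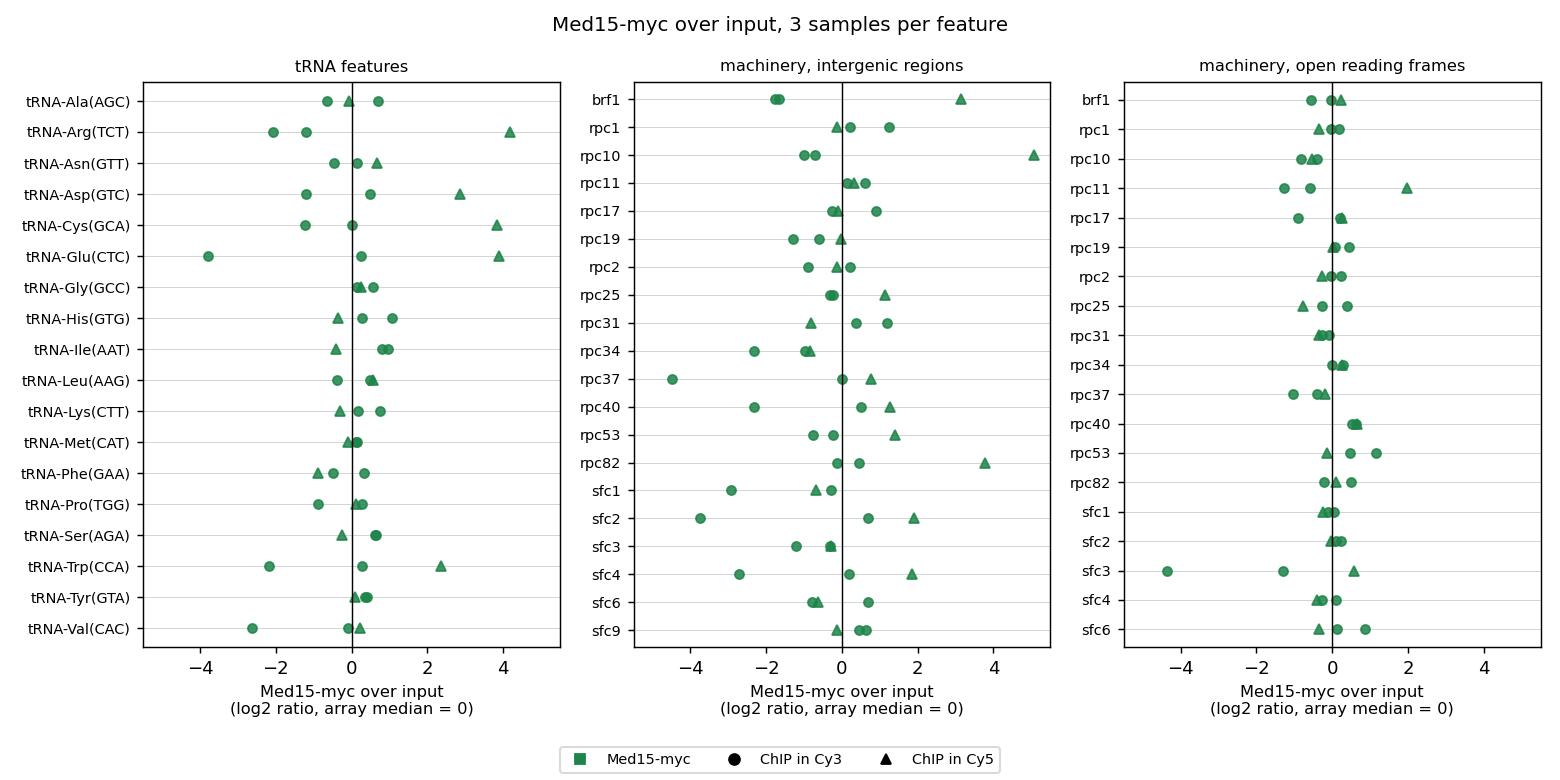
Log2 Med15-myc over input as scanned, with the array median at 0 (horizontal axis), at the tRNA features, the intergenic machinery features and the machinery open reading frames (rows, left to right), with 1 point per sample, circles for ChIP DNA in Cy3 and triangles for Cy5. The points straddle 0 at most features, and the farthest right is the Cy5 sample at the intergenic rpc10 feature, at 5.08. Input less background at that point was 33 scanner units, at percentile 1.36 of IGR features.

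Other genes around RNA polymerase III were taken from lists by function. From the synthetase list, features were counted where the RefSeq product is a tRNA ligase, and from the processing list where it names tRNA, RNase P or exportin-T, a rule added after the values were seen. It left out the symbols crs1, ers1, msd1 and rrs1 of the synthetase list, and lsm2, lsm8, mod5, pop1 and trm6 of the processing list. As scanned, 0 members of any list passed for H3 over input by limma with Benjamini-Hochberg. After background correction, where 14.8% of all IGR features were lower and 9.56% higher, the 4 TFIIIB and regulatory partners on the IGR array had 1 lower, tbp1, the TATA-binding protein gene (-1.70, adjusted p = 1.18e-08), and the 4 shared polymerase subunits had 1 lower, rpb6 (-1.37). Of 18 aminoacyl-tRNA synthetase features, 1 was higher and 2 lower. Of 17 features of tRNA processing and export, 2 were higher and 3 lower, among them pus4, a pseudouridine synthase (-1.05), and trz2, a tRNA 3′ processing endonuclease (-0.88). Of 10 RNA polymerase I features 1 was lower, rpa12 (-0.78). Of 4 features of the 5S rRNA, itself an RNA polymerase III product, the 2 named as genes were lower (-1.80, adjusted p = 1.26e-09, and -1.73, adjusted p = 6.62e-09), and neither feature named PROMOTER was. In Med15-myc over input, 0 of the 4 passed as scanned. After background correction 1 PROMOTER feature was higher (1.23, SE 0.36, limma with Benjamini-Hochberg, adjusted p = 0.0453), where 1.23% of all features were higher. The other PROMOTER feature had 1.10 (adjusted p = 0.0764), and those named as genes had -0.57 and -0.38.

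Against wildtype, the tRNA processing list had in delta-hrp1 2 of 17 IGR features lower, against 8.23% of all features. These were sen54, of the tRNA splicing endonuclease (-4.58, SE 0.83, limma with Benjamini-Hochberg, adjusted p = 0.0191), and trz2 (-4.49, SE 0.85, adjusted p = 0.0191). Among ORFs it had 5 of 20 lower and 1 higher, against 13.8% and 13.7% of all features, and sen2, the catalytic splicing endonuclease subunit, was lower in both strains, at -2.83 in delta-hrp1 (adjusted p = 0.0069) and -2.71 in delta-med15 (adjusted p = 0.0296). Over all ORF features 110 were lower in delta-med15 than in wildtype, and 0 without wildtype sample 1, wildtype sample 2 or delta-hrp1 sample 3, which ends the call of sen2 in delta-med15. Of 19 synthetase ORFs 7 were higher and 2 lower in delta-hrp1, from hrs1, the histidine enzyme, at 2.62 (adjusted p = 0.0069) to grs1, the glycine enzyme, at -1.49 (adjusted p = 0.0196). Over all features, the IGR calls in delta-hrp1 numbered 594, and 2 and 2 without wildtype sample 1 or 2, none of them lower, which ends the calls of sen54 and trz2. The ORF calls numbered 1310, and 48 and 3 without these samples. The share called among synthetases, 9 of 19, stands beside 27.5% of all ORF features called in either direction in that comparison. In delta-med15 0 synthetases passed on either array, with 4 higher and 1 lower ORF at an unadjusted p under 0.05 (12.6% and 12.4% of all features).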

How the data were processed

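ChIP and input DNA of each sample were hybridised together to spotted 2-colour IGR and ORF arrays. Per the file headers, the scanner files hold a median intensity and a median local background for each spot and dye, as deposited by the authors with no normalization. The deposited value table holds log2 values. Set against the scanner files, they followed log2 of ChIP intensity less background, with a floor that was treated as missing. Their scaling by the authors is not stated. Arrays carry no read depth, and their number limits the precision.

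Ratios were log2 of ChIP over input medians as scanned, averaged over the spots of a name and centred on each array's median. Control spots, spots marked missing and spots at 0 in a channel were left out. limma 3.58.1 in R 4.3.3 was fitted on every feature with Benjamini-Hochberg adjustment over all and a threshold of 0.05. For H3 over input, strain and ChIP dye were terms, and the mean of the strains was tested against 0. For the value table, each deletion was compared with wildtype, with dye as a term. For Med15-myc, the mean was tested against 0. Background correction was normexp with an offset of 50 on each dye. Other settings are in the closing section. Scripts were tested on simulated data. The planned replicate block and the settings without dye were run. Blocking by the date in the file names, where each date holds 1 group, could be run only for H3 over input without the dye term.

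The members and lists were chosen with earlier results of these data known. Named were all machinery genes that passed or were extreme, the tRNA features that passed in a comparison, the 5 highest and 5 lowest of them by mean as scanned, and at most 4 passing genes of each other list. The 5S features and the settings that combine 2 choices were described after the values were seen.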

Additional observations from a re-analysis of the deposited data

How the results depend on the processing

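The counts of members that passed depended strongly on the background correction and normalization. For H3 over input, 0 IGR members passed as scanned, 18 after background correction (16 without the dye term), 23 after loess and 5 after the arrays were given equal spread. Of the ORF members 0 passed as scanned, 4 after background correction (3 without the dye term) and 7 after loess. With background correction, 1420, 833 and 474 of all 4960 IGR features passed without delta-hrp1 sample 1, 2 or 3. On the ORF array it was 481, 293 and 252 of all 4890. The members among them numbered 17, 16 and 12 on the IGR and 5, 1 and 2 on the ORF array. Without delta-med15 sample 1 or 2, these were 5 and 12 IGR and 0 and 2 ORF members. As scanned, leaving out a sample gave 0 to 1 IGR calls, and a tRNA median of the strain difference of 0.41 to 1.30, and scaling the arrays gave 1.48. After background correction, leaving out a sample gave 0.40 to 0.83 for it, and -0.12 to 0.18 for the IGR machinery median. Without delta-med15 sample 2 the background-corrected ORF machinery median of that difference was -0.26.

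In delta-hrp1 minus wildtype, 7 IGR members passed, against 3 with values at the floor kept. The tRNA median of -1.49 became -1.17 with arrays scaled and -1.20 without the dye term. The machinery median of -0.33 became 0.00059 and -0.14 under these. Leaving out 1 sample gave 0 to 7 calls, tRNA medians of -1.58 to -1.04 and machinery medians of -0.66 to 0.18. In delta-med15 minus wildtype, 1 IGR member passed, 7 with arrays scaled and 3 without the dye term. The tRNA median of -1.23 became -1.03 and -0.85, and the machinery median of -0.35 became -0.11 without the dye term. Leaving out 1 sample gave 0 to 10 calls, with tRNA medians of -1.74 to -1.08 and machinery medians of -0.68 to -0.13. On the ORF array it gave 0 to 6 calls and medians of 0.027 to 0.23 for delta-hrp1, and 0 to 2 calls and medians of -0.094 to 0.35 for delta-med15, where scaling gave 2. For Med15-myc, 0 IGR members passed as scanned, 2 after background correction, 6 after loess and 4 in the deposited ChIP values. The tRNA median of 0.21 became 0.31, 0.16 and -0.40 under these and 0.14 without dim spots, and the machinery median of -0.14 became 0.21 after background correction and -1.02 in the deposited values. Leaving out 1 sample gave tRNA medians of -0.029 to 0.21 and machinery medians of -0.63 to 0.24. For ORFs 0 became 2 after loess and 6 in the deposited values, where the median was 0.42. In the deposited values 554 of all 4875 IGR and 1621 of all 4785 ORF features passed. The causes were not tested.

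Counts over all features moved likewise. IGR H3 over input gave 14 calls as scanned, 1209 after background correction, 1892 after loess and 191 under equal spread, and the ORF array 18, 530, 1399 and 156. Med15-myc gave 0, 117 and 501 IGR and 0, 23 and 460 ORF calls as scanned, after background correction and after loess. IGR delta-med15 minus wildtype gave 9, 390 with arrays scaled, 91 without the dye term and 581 without delta-hrp1 sample 1. IGR delta-hrp1 minus wildtype gave 594, and 356 with values at the floor kept.

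The replicate numbers are not stated to mark shared cultures. In the value table, same-numbered samples correlated at 0.117 to 0.203 on the IGR and 0.0238 to 0.332 on the ORF array. With the replicate block, 13 IGR members passed in delta-hrp1 minus wildtype (tRNA median -1.26, machinery -0.47), against 986 of all 4753 features. In delta-med15 minus wildtype 3 IGR members passed, against 90 of 4753 features, and 0 ORF members, against 107 of 4724. Between the strains without the dye term 1 IGR member passed, brf1, against 12 of 4881 features. The date block with the dye term and the date block for Med15-myc were not run, since the block correlation could not be estimated. Without the dye term the date block gave 0 calls and a tRNA median of -1.06.

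Groups hold 2 to 3 samples, and with both wildtype samples in Cy3 the dye term rests on the deletion samples. Low input limits Arg, Trp and brf1 and the sfc6 ORF, among others. The side and extent of the IGR products and the wildtype input were not analysed here. The pooled spread of the background-corrected IGR fit makes its p-values depend on features being equally variable.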
